A study of Caenorhabditis elegans with 12 samples.

Results

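BLMP-1 bound 982 sites in L3 larvae of wild-type Caenorhabditis elegans, a late larval stage, as mapped by ChIP-seq. In this assay an antibody pulls down a protein with the DNA fixed to it, and that DNA is sequenced. The sites are all peaks of the BLMP-1 list and make up 12.99% of the 7558 peaks mapped for 6 proteins. The other lists hold 2466 peaks of ZFP-1, a zinc finger chromatin protein, 1715 of SIN-3, a scaffold of histone deacetylase complexes, 1115 of the cohesin subunit SCC-1, 816 of the histone demethylase JMJD-2 and 464 of the topoisomerase TOP-2. Every sample came from whole animals of the N2 strain grown at the same temperature, with no mutant, transgene or treatment. The groups differed in the antibody, and the peaks of BLMP-1 were also called with another program than those of the other lists. Each protein was immunoprecipitated in 2 biological replicates, 12 samples in all, which the authors combined into a single list per protein. The lists hold positions in ce10 and no height, score or read count. The depth behind a peak is therefore unknown, no error between replicates can be given, and intervals and tests below take peaks as units and cover counting error over peaks only. Because whole larvae were used, the cell types in which a site was bound are unknown.

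BLMP-1 is the nematode relative of mammalian Blimp-1 (PRDM1), a zinc finger transcription factor that binds DNA at specific sequences. In C. elegans it is known for roles in the hypodermis, the epidermal tissue that secretes the cuticle, in the vulva, and in the migration of the gonadal distal tip cells, and it acts in the timing of larval development. Factors of this kind bind mostly at promoters and enhancers. SIN-3 and JMJD-2 act on histones, and cohesin holds and folds DNA, so a shared peak places a site of BLMP-1 next to one of these chromatin proteins in the same population of animals, though not necessarily in the same cell.

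BLMP-1 sites were spread over all 6 chromosomes, most densely on X and I and least densely on IV and V. X had 11.5 peaks per Mb (204 peaks, exact Poisson 95% interval 10.0 to 13.2), 11.4 on I (172 peaks, 9.77 to 13.2), 10.95 on III (151 peaks, 9.28 to 12.8), 10.0 on II (153 peaks, 8.49 to 11.7), 7.96 on IV (139 peaks, 6.69 to 9.40) and 7.80 on V (163 peaks, 6.65 to 9.09). The intervals of X, I, III and II overlap one another, as do those of IV and V, and the interval of II also overlaps those of IV and V and the interval of III that of IV. In full bins of 1 Mb, each of the 97 bins held at least 1 BLMP-1 peak, with a mean of 9.86 and at most 23 peaks. The evenness of the bins differed between chromosomes. The variance of the bin counts was 0.904 times their mean on III and 1.25 times on X, whereas it was 2.00 on IV, 2.61 on I, 3.03 on II and 4.72 on V. On V, 7 of 20 bins held 3 peaks or fewer.

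**Figure D1:**
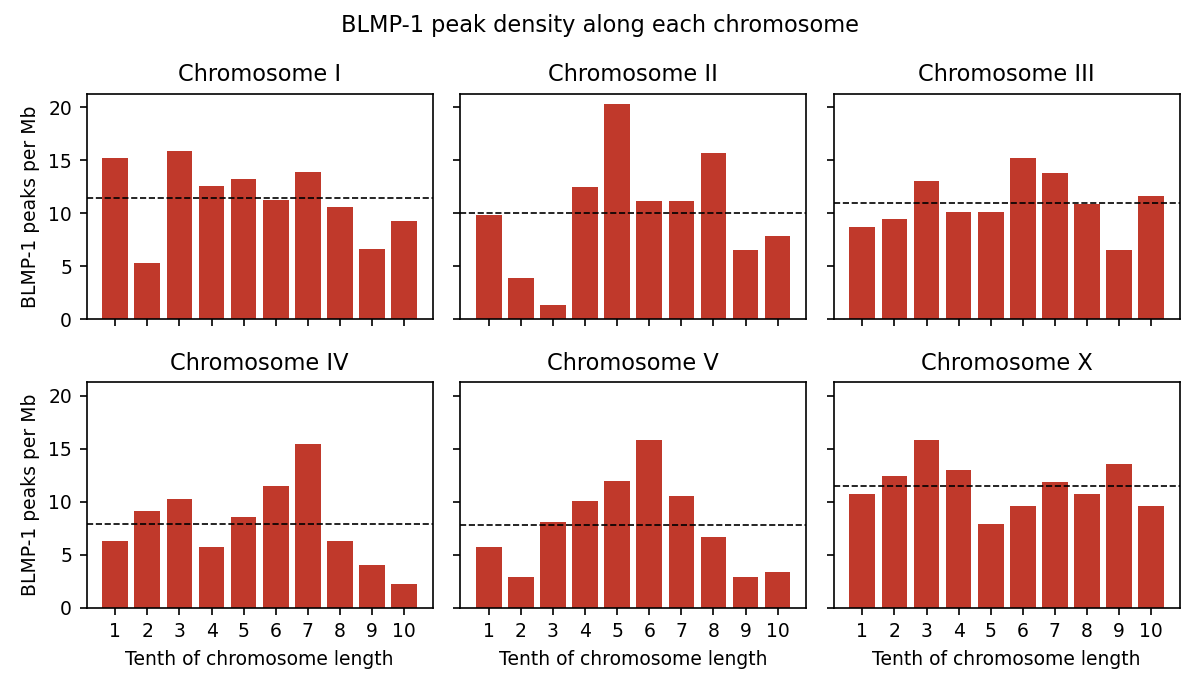
BLMP-1 peaks per Mb (y axis) in 10 equal segments along each chromosome (x axis); dashed lines mark the mean of the chromosome. The density is highest in segment 5 of II (20.3 per Mb) and lowest in segment 3 of II (1.31), while on X it ranges from 7.92 to 15.8 and on V from 2.87 to 15.8.

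On the autosomes, BLMP-1 sites were denser in the center than toward the ends. Chromosomes were divided into a left, a middle and a right part of equal length, and the left and right parts were called distal. The central parts held 11.5 peaks per Mb and the distal parts 8.38, a ratio of 1.38. The ratio was above 1 on each of the 5 autosomes, at 1.73 on II, 1.71 on V, 1.48 on IV, 1.07 on I and 1.05 on III. On X the central part was the sparser one, with 10.3 peaks per Mb against 12.1 in the distal parts. The differences in density between parts were not tested. Chromosome II had the highest ratio of central to distal density, and its left part held 28 peaks, its middle part 71 and its right part 54. IV and V were sparse on the right, where they held 31 and 37 peaks compared with 59 and 75 in the middle.

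The distal share of autosomal BLMP-1 peaks was 59.3% (461 of 778, exact Clopper-Pearson 95% interval 55.7% to 62.7%), lower than that of TOP-2, SIN-3 and SCC-1. The corresponding share was 70.6% for TOP-2 (odds ratio 0.605, 95% interval 0.461 to 0.794, adjusted p = 0.00152), 65.7% for SIN-3 (0.759, 0.636 to 0.906, adjusted p = 0.00572) and 65.8% for SCC-1 (0.756, 0.624 to 0.917, adjusted p = 0.00826; two-sided Fisher's exact test with Benjamini-Hochberg adjustment for 5 lists). The differences from SIN-3 and SCC-1 failed the test once peaks of a list within 1 kb of each other had been merged (adjusted p = 0.110 and 0.0525) or when chromosome II was left out (0.0604 for both, Fisher's exact test). For JMJD-2 the share was 63.6% (odds ratio 0.832, 0.672 to 1.03, adjusted p = 0.117 by Fisher's exact test). The list of ZFP-1, with 60.6%, was closest to BLMP-1 (odds ratio 0.946, 0.799 to 1.12, adjusted p = 0.518 by Fisher's exact test).

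The richest bin and the longest stretch without a peak were taken for each chromosome. The 1-Mb bin with the most BLMP-1 peaks ran from 7000001 to 8000000 on both I and III, with 22 and 18 peaks. Equal coordinates on different chromosomes are different sites. On II and V it ran from 6000001 to 7000000, with 22 and 23 peaks. On IV, 2 bins reached 15 peaks, the first from 10000001 to 11000000, and on X 3 bins reached 18, the first from 2000001 to 3000000. The longest stretch without a BLMP-1 peak was on V, from 3738685 to 4918681, 1180 kb, where 9.20 peaks would lie at the mean density of that chromosome. It was followed by 1049 kb on II, from 1386830 to 2435581. Both stretches were bound by the other proteins, with 32 and 41 of their peaks. On II the 13 TOP-2 peaks were the largest group, ahead of 11 for SIN-3, 8 for ZFP-1, 7 for SCC-1 and 2 for JMJD-2. On IV, I, X and III the longest stretches were 760.8, 585.5, 444.5 and 432.1 kb, from 15409790 to 16170633, 11196901 to 11782388, 13358762 to 13803216 and 4467538 to 4899653. These bins and stretches were picked as extremes and were not tested.

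Across the 97 bins of 1 Mb, the number of BLMP-1 peaks went most closely with that of ZFP-1. Pearson's r was 0.43 and Spearman's rho 0.47 for ZFP-1, compared with 0.24 and 0.29 for JMJD-2, 0.22 and 0.23 for SIN-3, 0.16 and 0.18 for SCC-1, and 0.15 and 0.19 for TOP-2. Over the 80 autosomal bins, r was 0.47 for ZFP-1, 0.38 for SIN-3, 0.36 for JMJD-2, 0.29 for SCC-1 and 0.03 for TOP-2. Bins of a chromosome are neighbors, and the lists share part of their sites, so these coefficients are descriptions only. The lists also differ in length, from a mean of 4.68 peaks per bin for TOP-2 to 24.5 for ZFP-1. Counting error weighs more on a short list, and its part in the ranking was not tested.

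Neighboring BLMP-1 sites were on average 101.7 kb apart but most gaps were shorter. Over the 976 gaps between midpoints of neighboring peaks, the median was 57.5 kb, the lower quartile 14.0 kb and the upper quartile 138.2 kb. The closest pair lay 0.446 kb apart and the most distant neighbors 1180 kb. By chromosome, the median gap was 44.8 kb on I, 49.4 on II, 54.2 on V, 57.4 on X, 69.1 on III and 73.3 on IV. A gap of at most 5 kb separated 171 neighbors (17.5%), and 33 of these gaps were at most 1 kb.

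To compare lists of different length, each gap was divided by the mean gap of that list on that chromosome. Of the BLMP-1 gaps, 213 (21.8%, Clopper-Pearson interval 19.3% to 24.5%) were shorter than 10% of the mean, more than for SIN-3 (16.8%, odds ratio 1.38, 95% interval 1.14 to 1.69, adjusted p = 0.00699) and JMJD-2 (17.0%, odds ratio 1.36, 1.07 to 1.73, adjusted p = 0.02996), and fewer than for TOP-2 (27.3%, odds ratio 0.744, 0.576 to 0.960, adjusted p = 0.0459; two-sided Fisher's exact test, adjusted for 5 lists). The share was 21.5% for ZFP-1 (odds ratio 1.02, 0.849 to 1.22, adjusted p = 0.854) and 19.0% for SCC-1 (1.19, 0.960 to 1.47, adjusted p = 0.143, Fisher's exact test). With peaks less than 1 kb apart merged, the differences from JMJD-2 and TOP-2 no longer passed (adjusted p = 0.228 and 0.690), and that from TOP-2 was lost under each of the other alternatives as well (0.0666 to 0.305, Fisher's exact test). BLMP-1 peaks were called with MACS2 and the others with YAPC. The caller and the protein therefore cannot be told apart in any comparison between BLMP-1 and the other lists. This holds for spacing and width, and also for the distal share, the share on X and the share of peaks with a partner.

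**Figure D2:**
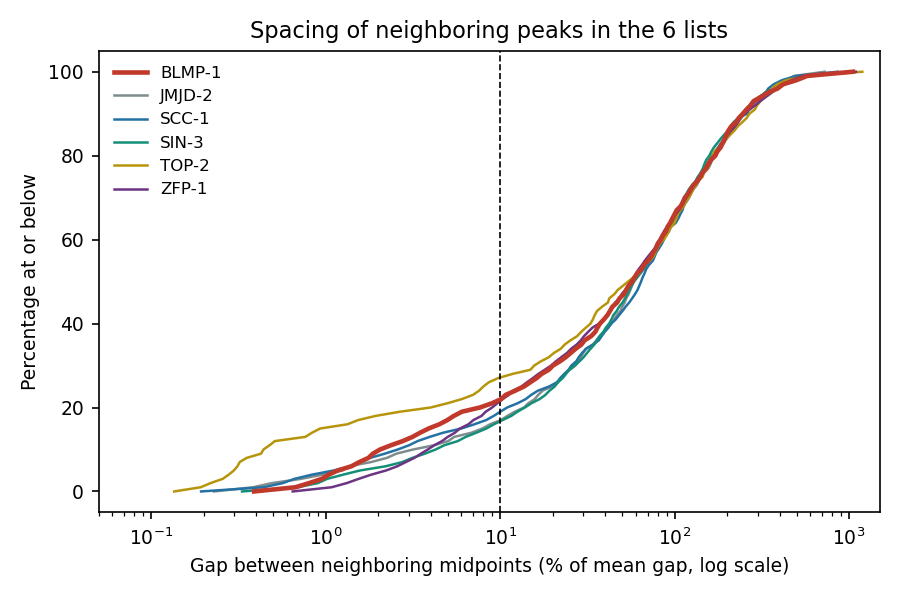
Cumulative percentage of gaps between neighboring peak midpoints (y axis) against gap length as a percentage of the mean gap of that list and chromosome (x axis, log scale) for the 6 lists. At the dashed line (10% of the mean gap) BLMP-1 lies at 21.8%, next to ZFP-1 at 21.5% and below TOP-2 at 27.3%.

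Linking neighboring midpoints at most 5 kb apart placed 287 BLMP-1 peaks (29.2%, interval 26.4% to 32.2%) in 116 clusters. There were 78 clusters of 2 peaks, 29 of 3 and 9 of 4 to 6, and the median cluster was 3.32 kb long. Clustered peaks were 34.9% of those on I, 34.3% on X, 30.1% on II and V, 26.5% on III and 15.8% on IV. X against all autosomes, 34.3% and 27.9%, did not pass the test (odds ratio 1.35, 0.972 to 1.88, p = 0.0835 by a two-sided Fisher's exact test). Without the peaks wider than 1 kb it did (67 of 188 on X and 205 of 746 on autosomes, odds ratio 1.46, p = 0.0311 by the same exact test). With linking at 2 kb the direction turned (29 of 204 on X and 132 of 778 on autosomes, odds ratio 0.811, p = 0.396 by the exact test), and without chromosome IV, an alternative added after seeing the data, the odds ratio was 1.19. At a fixed limit of 5 kb the clustered share follows density, and X was denser in BLMP-1 peaks than the autosomes (11.5 and 9.43 peaks per Mb). The part of density in this comparison was not tested. Clustered peaks also come in groups by definition, whereas the test took each peak as a separate unit. For the other proteins, which differ in density, the clustered share ran from 20.3% for JMJD-2 to 42.5% for ZFP-1.

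The largest clusters differed in their partners. The first of 2 clusters of 6 peaks on II ran from 1236532 to 1247363, and 5 of its 6 peaks shared bases with a ZFP-1 peak. In the second, from 6837168 to 6848430, 1 of the 6 did. The cluster of 6 on V, from 6347054 to 6354702, had no peak of another protein on any of its members, which were 274, 370, 1227, 542, 770 and 663 bp wide and covered 50.3% of the 7.65 kb. On X the largest cluster had 5 peaks, from 15272731 to 15278249, that covered 79.5% of its length. Its middle peak, 1394 bp wide, overlapped JMJD-2, TOP-2 and ZFP-1, and a ZFP-1 peak lay on both neighbors of that peak. I had a cluster of 4 from 10404907 to 10410050, of which 2 overlapped ZFP-1. On III and IV the largest clusters had 3 peaks, for example 1923555 to 1926788 on III, with ZFP-1 at 2 peaks, and 8530595 to 8533135 on IV, with no partner.

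BLMP-1 peaks varied in width far more than those of the other lists. The narrowest BLMP-1 peak was 176 bp wide, the median 336 bp and the widest 11192 bp, with quartiles at 282 and 476.8 bp. More than 500 bp was covered by 215 BLMP-1 peaks (21.9%), and by 1 peak each of JMJD-2, SIN-3 and ZFP-1 and none of SCC-1 and TOP-2. Median widths were alike on all chromosomes, from 318 bp on III to 352 bp on IV, and 336.5 bp on X. Peaks over 500 bp were 23.0% of those on X (interval 17.5% to 29.4%) and 21.6% on the autosomes (18.8% to 24.6%). Peaks wider than 1 kb, 48 in number, were 7.84% of those on X (16 peaks, 4.55% to 12.4%) and 4.11% on the autosomes (32 peaks, 2.83% to 5.76%). This limit was known from an earlier look at the list and was not tested. It fell between peaks of 995 and 1020 bp.

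**Figure D3:**
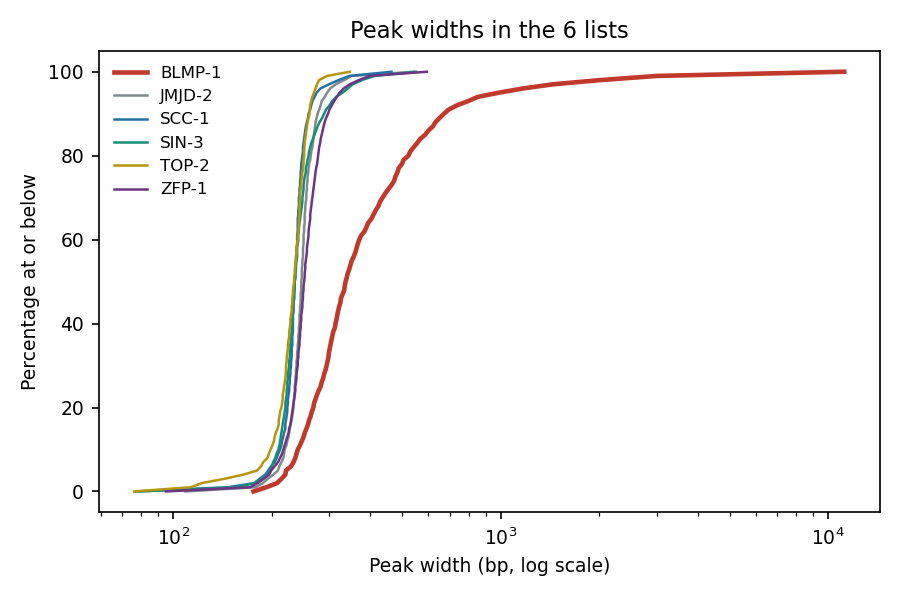
Cumulative percentage of peaks (y axis) by width in bp (x axis, log scale) for the 6 lists. The BLMP-1 curve lies to the right of the others, with a median of 336 bp and a tail to 11192 bp, while the other lists end at 595 bp or below.

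The 10 widest BLMP-1 peaks were on all 6 chromosomes, and 8 of them had no peak of another protein. The widest ended 1010 bp from the end of I (15060222 to 15071413) and shared bases with ZFP-1. The next widest, 6663 bp, and one of 3960 bp lay 1553 bp apart on V (17119952 to 17126614 and 17128168 to 17132127). A peak of 4826 bp was near the left end of X (109491 to 114316). The others were on II (8288334 to 8292751), III (7444301 to 7448112 and 1017345 to 1020640), X (15807527 to 15811199 and 291970 to 295295, the latter with a TOP-2 peak) and IV (11070852 to 11074246). As background, the main array of ribosomal RNA genes of this species lies at the right end of chromosome I and a separate ribosomal array lies on V; whether these peaks fall within repeats was not examined here. Of the 20 peaks over 2 kb, 18 had no partner. Of the 17 peaks over 1 kb and up to 1400 bp, 7 had one, a limit chosen after the values were seen.

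A peak of at least 1 other protein shared at least 1 bp with 317 BLMP-1 peaks (32.3%, interval 29.4% to 35.3%), and 665 stood alone among the 6 proteins. The share alone was 67.7% for BLMP-1, between 56.2% for SIN-3 and 73.4% for ZFP-1, and 39.5% for JMJD-2, 43.2% for SCC-1 and 85.1% for TOP-2. ZFP-1 was the sole partner at 190 BLMP-1 peaks. Of the rest, 16 had SIN-3 alone, 7 JMJD-2 alone, 7 SCC-1 alone and 1 TOP-2 alone. There were 54 peaks with 2 partners, 27 with 3 and 15 with 4. Counted with or without others, ZFP-1 was at 26.3% of BLMP-1 peaks, SIN-3 at 8.15%, JMJD-2 at 6.52%, SCC-1 at 6.415% and TOP-2 at 0.509%. The ZFP-1 list is also the longest. It shared bases with 22.55% of JMJD-2, 15.7% of SIN-3, 15.1% of SCC-1 and 11.2% of TOP-2 peaks.

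Where partners shared a BLMP-1 peak, their midpoints were close to its own. Sharing of bases itself limits this distance, and more so at narrow peaks. The BLMP-1 peaks had a median width of 268 bp with SCC-1, 275 bp with SIN-3, 295 bp with JMJD-2 and 358 bp with ZFP-1. The median distance between midpoints was 21.0 bp for SCC-1 (63 peaks), 32.8 bp for JMJD-2 (64 peaks), 43.2 bp for SIN-3 (80 peaks) and 46.5 bp for ZFP-1 (258 peaks). Midpoints were at most 100 bp apart at 88.9% of the shared SCC-1 peaks, 84.4% for JMJD-2, 82.5% for SIN-3 and 74.8% for ZFP-1. For the 5 TOP-2 peaks the median was 190 bp, and 1 of the 5 was within 100 bp, but their BLMP-1 peaks were 325 to 3326 bp wide. Seen from the other lists, BLMP-1 was present at 10.9% of ZFP-1 peaks, 7.84% of JMJD-2, 5.65% of SCC-1, 4.66% of SIN-3 and 1.08% of TOP-2 peaks. A ZFP-1 midpoint lay within 5 kb of 474 BLMP-1 midpoints (48.3%, shared peaks included), compared with 21.3% for SIN-3, 14.2% for JMJD-2, 13.03% for SCC-1 and 5.60% for TOP-2, lists that are also shorter.

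JMJD-2, SCC-1 and SIN-3 tended to occur together at BLMP-1 peaks. Of the 63 BLMP-1 peaks with SCC-1, 43 also had SIN-3 (68.3%, interval 55.3% to 79.4%), compared with 37 of the 919 without SCC-1 (4.03%, 2.85% to 5.51%). JMJD-2 was at 36 of the 63 (57.1%), compared with 3.05% of the rest. All 3 proteins shared 28 BLMP-1 peaks, of which 15 also had ZFP-1 (53.6%, 33.9% to 72.5%; 25.5% of the other 954). The lists of these 3 proteins also shared peaks with one another as a whole. Another of the 3 was at 42.0% of clustered SCC-1 peaks and 55.4% of those not clustered. The shares were 45.2% and 50.3% for JMJD-2 and 30.0% and 36.1% for SIN-3. These shares count any other of the 3 proteins and split each list by its own clusters. They are therefore not the same measure as the shares of single proteins at BLMP-1 peaks. The counts at BLMP-1 peaks were not tested against those in other lists.

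The 15 BLMP-1 peaks with 4 partners all had the same set, JMJD-2, SCC-1, SIN-3 and ZFP-1, and were narrow. Their median width was 247 bp, compared with 330 bp for peaks with no partner. There were 5 on IV, 3 on III, 2 each on I, II and X, and 1 on V. The 10 widest were II 10174335 to 10174702, V 8606332 to 8606692, III 13462933 to 13463281, I 8816403 to 8816695, X 2242841 to 2243123, I 9163385 to 9163645, III 3067992 to 3068248, III 3867466 to 3867712, IV 654803 to 655037 and II 10658739 to 10658973, between 235 and 368 bp wide. None of the 15 reached the upper quartile of BLMP-1 widths.

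The partners differed between narrow and wide BLMP-1 peaks. The list was split by width into 4 groups of nearly equal size. In the narrowest group (246 peaks of 176 to 282 bp), SIN-3 was at 17.1% (interval 12.6% to 22.4%), SCC-1 at 14.2% (10.1% to 19.2%) and JMJD-2 at 12.2% (8.38% to 16.9%). In the widest group (245 peaks of 477 bp or more) these shares were 2.86% (1.16% to 5.80%), 3.27% (1.42% to 6.33%) and 4.08% (1.97% to 7.38%). The lower shares were not graded with width: any of the 3 proteins was at 21.1%, 7.72%, 12.2% and 9.39% of the groups from narrowest to widest. The narrowest group had the highest share, but its interval (16.2% to 26.8%) overlapped that of the group next to the widest (8.42% to 17.0%). ZFP-1 was at 19.1% (14.4% to 24.6%) of the narrowest and 30.2% (24.5% to 36.4%) of the widest group, but at 14.6% (7 of 48, 6.07% to 27.8%) of the peaks over 1 kb. With any partner counted, these groups were close, 30.5% and 34.3% (odds ratio of widest to narrowest 1.19, 0.815 to 1.74, p = 0.386 by a two-sided Fisher's exact test). With midpoints within 500 bp the direction turned (85 of 245 and 87 of 246, odds ratio 0.971). Since a wider peak offers more bases to be shared, midpoints were also compared. A midpoint of SIN-3, SCC-1 or JMJD-2 lay within 500 bp of that of 22.4% of the narrowest and 10.2% of the widest group, and a ZFP-1 midpoint of 22.8% (17.7% to 28.5%) and 30.6% (24.9% to 36.8%), intervals that overlap. On X alone the shares were nearly equal, with 9.30% of 43 and 9.26% of 54 peaks holding any of the 3. In the other lists, the share with any of the 3, other than the protein of the list, went both ways. It fell from the narrowest to the widest group for JMJD-2 (57.8% to 38.2%), ZFP-1 (21.1% to 14.3%) and TOP-2 (7.76% to 4.31%). It rose for SCC-1 (42.3% to 54.7%) and SIN-3 (23.8% to 34.1%), and the difference between lists was not tested. The separate proteins in the width groups were compared after their values were seen and have no test.

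**Figure D4:**
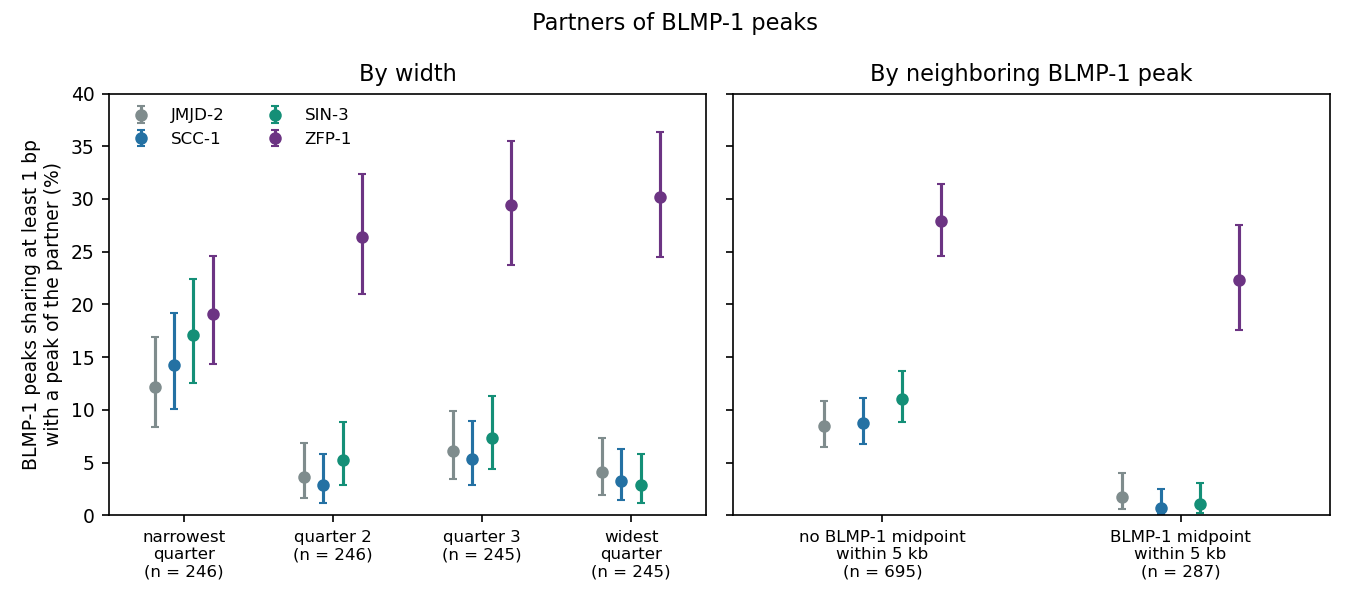
Percentage of BLMP-1 peaks that share at least 1 bp with a peak of JMJD-2, SCC-1, SIN-3 or ZFP-1 (y axis), by width in 4 groups of nearly equal size (left) and by whether another BLMP-1 midpoint lies within 5 kb (right); points are shares and bars exact 95% intervals. SIN-3 goes from 17.1% in the narrowest to 2.86% in the widest group, and from 11.1% of peaks without to 1.05% of peaks with a close BLMP-1 neighbor, while ZFP-1 stays between 19.1% and 30.2%.

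Clustered BLMP-1 peaks rarely carried JMJD-2, SCC-1 or SIN-3. At least 1 of these 3 proteins was at 8 of 287 clustered peaks (2.79%, interval 1.21% to 5.42%) and at 116 of 695 isolated peaks (16.7%, 14.0% to 19.7%). By protein, SIN-3 was at 3 clustered peaks (1.05%) and 11.1% of isolated ones, SCC-1 at 2 (0.697%) and 8.78%, and JMJD-2 at 5 (1.74%) and 8.49%. ZFP-1 was at 22.3% (17.6% to 27.6%) of clustered and 27.9% (24.6% to 31.4%) of isolated peaks. The order was the same on each of the 6 chromosomes, where the clustered share ran from 1.67% on I to 5% on III and the isolated share from 10.4% on X to 23.4% on III. Each of these clustered shares rests on only 1 or 2 peaks, and the intervals of clustered and isolated peaks overlap on every chromosome except I. The order was also the same in each of the 4 width groups, with 1 to 3 clustered peaks behind each share. The intervals overlap in the narrowest group and the group next to it. The clustered share was 5.88%, 1.61%, 2.50% and 2.70% from the narrowest to the widest group, and the isolated share 23.6%, 9.78%, 17.0% and 14.9%. Linking at 2 kb gave 1.86% and 14.7%, and linking at 10 kb gave 5.46% and 16.9%.

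Clustered BLMP-1 peaks were also wider, with a median of 408 bp against 320 bp, and the clustered share went from 13.8% in the narrowest to 45.3% in the widest group, although it was 27.1% (13 of 48, 15.3% to 41.9%) for peaks over 1 kb. In the other lists the shares of clustered and isolated peaks were closer as a ratio, though in percentage points SCC-1 differed by about as much as BLMP-1. At least 1 of the 3 proteins, other than the protein of the list, was at 14.2% of clustered and 18.2% of isolated ZFP-1 peaks, 30.0% and 36.1% of SIN-3 peaks, 42.0% and 55.4% of SCC-1 peaks, 45.2% and 50.3% of JMJD-2 peaks and 4.14% and 5.02% of TOP-2 peaks. The difference between lists was not tested, since the split was singled out after its values were seen.

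BLMP-1 was denser on X than on the autosomes as a whole, at 11.5 and 9.43 peaks per Mb, a ratio of 1.22. Of its peaks 20.8% were on X (interval 18.3% to 23.4%), above SIN-3 with 8.34% (odds ratio 2.88, 95% interval 2.29 to 3.63, adjusted p = 6.70e-19) and SCC-1 with 8.52% (2.82, 2.17 to 3.65, adjusted p = 3.31e-15; two-sided Fisher's exact test, adjusted for 5 lists). JMJD-2 with 18.1% (1.18, 0.935 to 1.50), ZFP-1 with 18.7% (1.14, 0.948 to 1.37) and TOP-2 with 25.2% (0.778, 0.600 to 1.01) fell short of the threshold (adjusted p = 0.170, 0.170 and 0.112, Fisher's exact test). When peaks shared with any other list were left out, the difference from ZFP-1 passed (152 of 665 BLMP-1 and 324 of 1811 ZFP-1 peaks, odds ratio 1.36, adjusted p = 0.0113 by the same exact test).

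**Figure D5:**
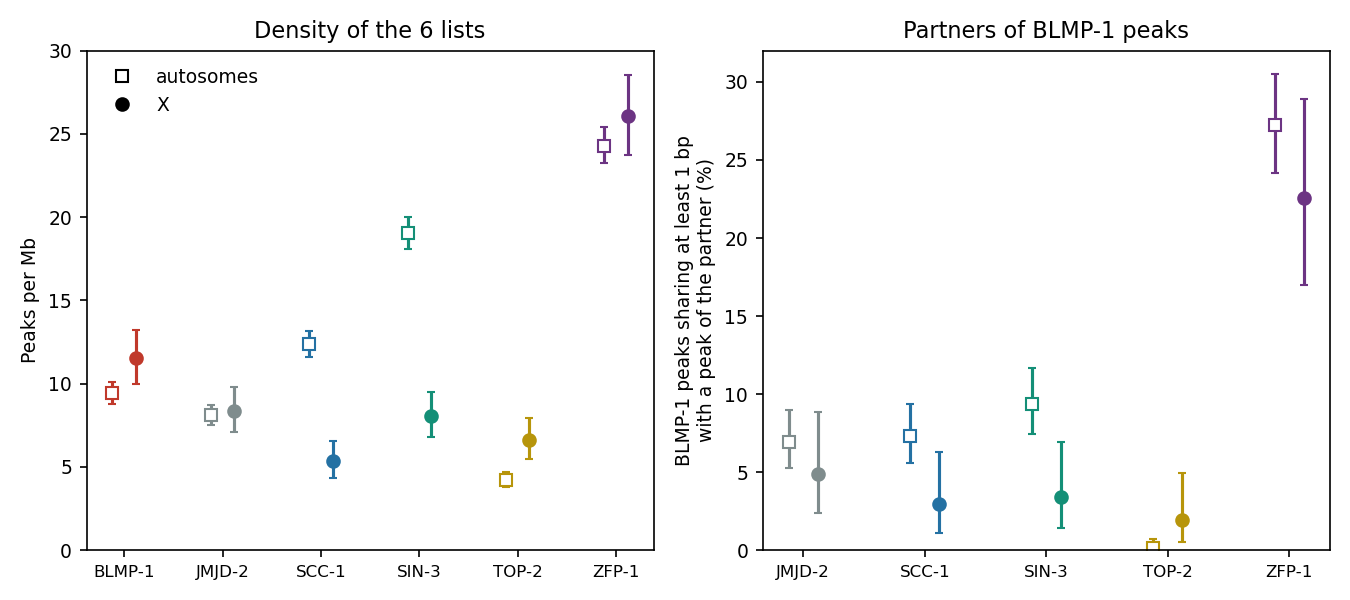
Left, peaks per Mb on the autosomes (open squares) and on X (filled circles) for the 6 lists with exact Poisson 95% intervals. Right, percentage of BLMP-1 peaks on the autosomes and on X that share at least 1 bp with each partner, with exact binomial 95% intervals; SIN-3 and SCC-1 lie lower on X (3.43% and 2.94%) than on the autosomes (9.38% and 7.33%).

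BLMP-1 peaks on X had SIN-3 and SCC-1 as partners less often than those on autosomes, and TOP-2 more often. SIN-3 was at 7 of 204 peaks on X (3.43%, interval 1.39% to 6.94%) and 73 of 778 on autosomes (9.38%, 7.43% to 11.7%; odds ratio 0.343, 0.156 to 0.757, adjusted p = 0.0190, exact test). SCC-1 was at 2.94% and 7.33% (odds ratio 0.383, 0.163 to 0.902, adjusted p = 0.0394), a call that was lost without chromosome IV (adjusted p = 0.0674, two-sided Fisher's exact test, adjusted for 5 partners). TOP-2 was at 4 peaks on X and 1 on autosomes (odds ratio 15.5, 1.73 to 139.8, adjusted p = 0.0190), and without the peaks wider than 1 kb at 2 and 1 (adjusted p = 0.131, Fisher's exact test). The shares of JMJD-2, 4.90% and 6.94% (odds ratio 0.691, 0.346 to 1.38), and of ZFP-1, 22.5% and 27.2% (0.777, 0.540 to 1.12), did not pass (adjusted p = 0.342 and 0.227, Fisher's exact test). The partner lists themselves were sparser or denser on X in the same direction, with densities relative to the autosomes of 0.424 for SIN-3, 0.434 for SCC-1 and 1.57 for TOP-2, and their part in these differences was not tested.

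The 4 BLMP-1 peaks with TOP-2 on X were at 291970 to 295295, 2432557 to 2432881, 2852424 to 2852794 and 15274786 to 15276179, and the autosomal one at 4028213 to 4028548 on IV. ZFP-1 was also present at 3 of these 5 peaks and JMJD-2 at 2. Between the distal and central parts of the autosomes the partners were not separated by the test. SIN-3 was at 10.6% of distal and 7.57% of central peaks (odds ratio 1.45, 0.871 to 2.42), JMJD-2 at 8.03% and 5.36% (1.54, 0.851 to 2.79), SCC-1 at 8.03% and 6.31% (1.30, 0.737 to 2.28) and ZFP-1 at 26.9% and 27.8% (0.958, 0.695 to 1.32), with adjusted p from 0.490 to 1 (two-sided Fisher's exact test, adjusted for 5 partners). Among autosomes, the share of BLMP-1 peaks with any partner was highest on IV (41.7%, interval 33.4% to 50.4%), where BLMP-1 peaks were also least often clustered, and lowest on V (26.4%, 19.8% to 33.8%), and it was 25.5% on X (19.7% to 32.05%).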

How the data were processed

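Reads were aligned to ce10 with BWA, per the submitters' processing notes. The authors then called peaks replicate by replicate, with MACS2 for BLMP-1 and, per the methods, YAPC for all remaining proteins, and merged replicates by IDR (P-value limit 0.01). The notes list MACS2 throughout; the methods were followed here. Versions of these tools were not given in the sources used here. Removal of highly occupied intervals is described in the methods, and whether the lists precede that step was not stated. The deposited lists hold peak positions and no other unit. Samples were assigned to proteins from their titles.

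Positions count from 1, and a chromosome was taken to end at the last peak of any list. Proteins shared a peak when at least 1 bp was common. Shares carry exact Clopper-Pearson 95% intervals, densities exact Poisson intervals and odds ratios Woolf intervals. P-values are from Fisher's exact test with Benjamini-Hochberg adjustment. Neighboring peaks may not be independent, and lists share sites. The sites named were the 10 widest peaks, the richest 1-Mb bin, largest cluster and longest empty stretch of each chromosome, and up to 10 peaks with 4 or more partners; other named sites, among them the second cluster of 6 on II and the peaks with TOP-2, were chosen after their values were seen. Members, limits and tests were chosen with earlier results of these data known. The procedures were tested on simulated data. Peaks were not assigned to genes and no sequence was read, because no ce10 genome or annotation was used here. Software comprised Python 3.11.15 with numpy 2.4.6, scipy 1.17.1 and matplotlib 3.10.9.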

Additional observations from a re-analysis of the deposited data

How the results depend on the processing

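No paired analysis was possible because the replicates of each protein were already combined in its list, and for the same reason no replicate could be left out; the lists hold no score, so no stricter threshold could be set. The 27 tests were repeated under 127 alternatives, of which 16 were added after seeing the data. Of these, 104 kept direction and call, 12 no longer passed the threshold, 5 newly passed it and 6 changed direction, none of which passed before or after. These 6 odds ratios were 1.02 for the distal share against ZFP-1 without chromosome II (added), 0.978 for short gaps against ZFP-1 with a limit of 20%, 0.811 for clustering on X at 2 kb, 0.930 and 0.971 for partners of the widest against the narrowest group with midpoints within 250 and 500 bp, and 1.002 for ZFP-1 in distal against central parts with distal at 25%. The causes of the changes were not tested. For the distal share, odds ratios were 0.788 (SCC-1) and 0.841 (SIN-3) with peaks less than 1 kb apart merged, 0.791 and 0.799 without chromosome II, and 0.683 for JMJD-2, newly passing, with distal set at 25% of the length. For short gaps, the ratio to TOP-2 was 0.768 with a limit of 5% of the mean gap, 0.864 with 20%, 0.762 with gaps from end to start, 0.934 with merging and 0.770 without BLMP-1 peaks wider than 1 kb. That to JMJD-2 was 1.23 with merging. ZFP-1 newly passed at 5% (1.38) and SCC-1 at 20% (1.25). Without peaks wider than 1 kb, clustering on X newly passed (1.46) and the TOP-2 share on X no longer did (8.01). The SCC-1 share on X was 0.410 without chromosome IV, an added alternative, and the X share against ZFP-1 was 1.36 without shared peaks. Depth is unknown, so its effect on which sites were called could not be assessed.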

Other observations

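How often another BLMP-1 peak lay beside a wide BLMP-1 peak was described without a test. Of the 48 peaks over 1 kb, 17 (35.4%, interval 22.2% to 50.5%) lay within 5 kb, edge to edge, of the next BLMP-1 peak, and of the other 934 peaks 284 did (30.4%, 27.5% to 33.5%). The intervals overlap, but the first is broad and does not exclude a difference. By midpoints over the whole list, the clustered share went from 13.8% in the narrowest to 45.3% in the widest group. Among the 10 widest, 4 had such a neighbor: the widest, on I, had a peak 301 bp away, those on V from 17119952 to 17126614 and from 17128168 to 17132127 lay 1553 bp apart, and that on IV from 11070852 to 11074246 had a peak 647 bp away. BLMP-1 peaks also began at the first base of I (480 bp wide) and of X (336 bp wide), and neither shared bases with another list.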
